A study of Mus musculus with 800 samples.

Results

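The cells described here are basal vomeronasal sensory neurons, selected on their measured raw counts of 3 genes among the chambers of a microfluidic chip: Gnao1 at 30 or more, Gnai2 under 30 and Sox2 under 10. The rule was met by 66 of the chambers labelled as holding a single cell, which is 16.8% of those chambers, in a series of 800 chambers. No receptor gene entered the rule. The cells came from OMP(GFP/wt) male mice of the strain B6;129P2-Omptm3Mom/MomJ, aged 66 days, in which one copy of the olfactory marker protein gene drives GFP. The study used 7 mice, pooled as 3 and 4 in 2 tubes, and GFP-positive cells were sorted after dissociation of the vomeronasal organ with papain. All classes compared below share this genotype, age and sex, and the labels tie no chamber to a pool or a mouse. Each class is therefore 1 unit, no value below has a replicate check, and no test was run.

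The vomeronasal organ senses pheromones and other social cues. Its sensory neurons lie in an apical layer, whose cells use the G protein alpha subunit Gαi2 (Gnai2) with V1R receptors, and a basal layer, whose cells use Gαo (Gnao1) with V2R receptors. V2Rs are class C G protein-coupled receptors, and a basal neuron is known to pair one V2R of families A, B or D with members of the small family C (Vmn2r1 to Vmn2r7). Many basal neurons also make H2-Mv proteins, nonclassical class I molecules encoded in the major histocompatibility complex.

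By the mirror-image rule, 69% of the single-cell chambers were apical neurons. A further 31 chambers passed 30 counts for both subunits, 20 had Sox2 at 10 or more, and 5 fitted none of these. The basal cells held a median of 151430 counts of unique molecular identifiers (range 40788 to 235382). The median was 150392 in the apical cells and 20731 in the chambers labelled empty, where totals ran from 4501 to 319287. Basal cells had a median of 3445 genes at 10 counts or more, against 3327.5 in apical cells. Counts in basal cells had 2 modes, with a minimum at 18 and an upper peak at 39. Values of 10 or more held 95.8% of all basal counts, so a gene is called "on" in a cell at 10 counts or more. To set cells of unequal depth side by side, a level is a count per 10000 of the cell's total. Whether counts with this shape are independent molecules was not tested, and the 95% intervals below cover counting error only.

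The rule set Gnao1 and Gnai2, which are given as a description. Gnao1 had at least 32 counts and a median of 74.5 in basal cells (levels 2.47 to 11.3), against medians of 1 in apical cells and 2 in empty chambers. Gnai2 ranged from 1 to 28 with a median of 7.5 in basal cells, while the apical median was 110 and the empty chambers held a median of 22. The 3 lowest Gnao1 values inside the rule were 32, 35 and 38, and the 3 highest among cells that failed only on Gnao1 were 21, 9 and 7. The highest Gnai2 values inside were 28, 26 and 23, and the lowest just outside were 30, 31 and 31.

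The other basal markers were on in most or many of these cells and rarely in apical cells or empty chambers. They were common in the 31 chambers with both subunits at 30 or more. There Tfap2e was on in 29%, Robo2 in 48.4%, Krt8 in 54.8% and Vmn2r1 in 41.9%. Tfap2e, the AP-2 epsilon transcription factor of basal neurons, had a median level of 0.771 (0 to 4.16), and was on in 51.5% of basal cells, 0.735% of apical cells and 2.46% of empty chambers. Its values split into a group near 0 and a group around the upper mode. Robo2, a receptor for the axon guidance cue Slit, had a median level of 2.47 (0 to 7.25) and was on in 69.7%, 2.94% and 5.23%. The keratin gene Krt8 had a median level of 3.19 (0 to 9.37) and was on in 87.9%, 7.72% and 9.85%. Vmn2r1, a family C receptor, had a median level of 1.71 (0 to 5.68) and was on in 77.3%, 1.1% and 4%. Omp, the marker of mature sensory neurons whose locus carries the GFP, had median levels of 5.57 in basal (1.02 to 13.3) and 5.92 in apical cells, and was on in 65 of 66 basal cells.

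**Figure D1:**
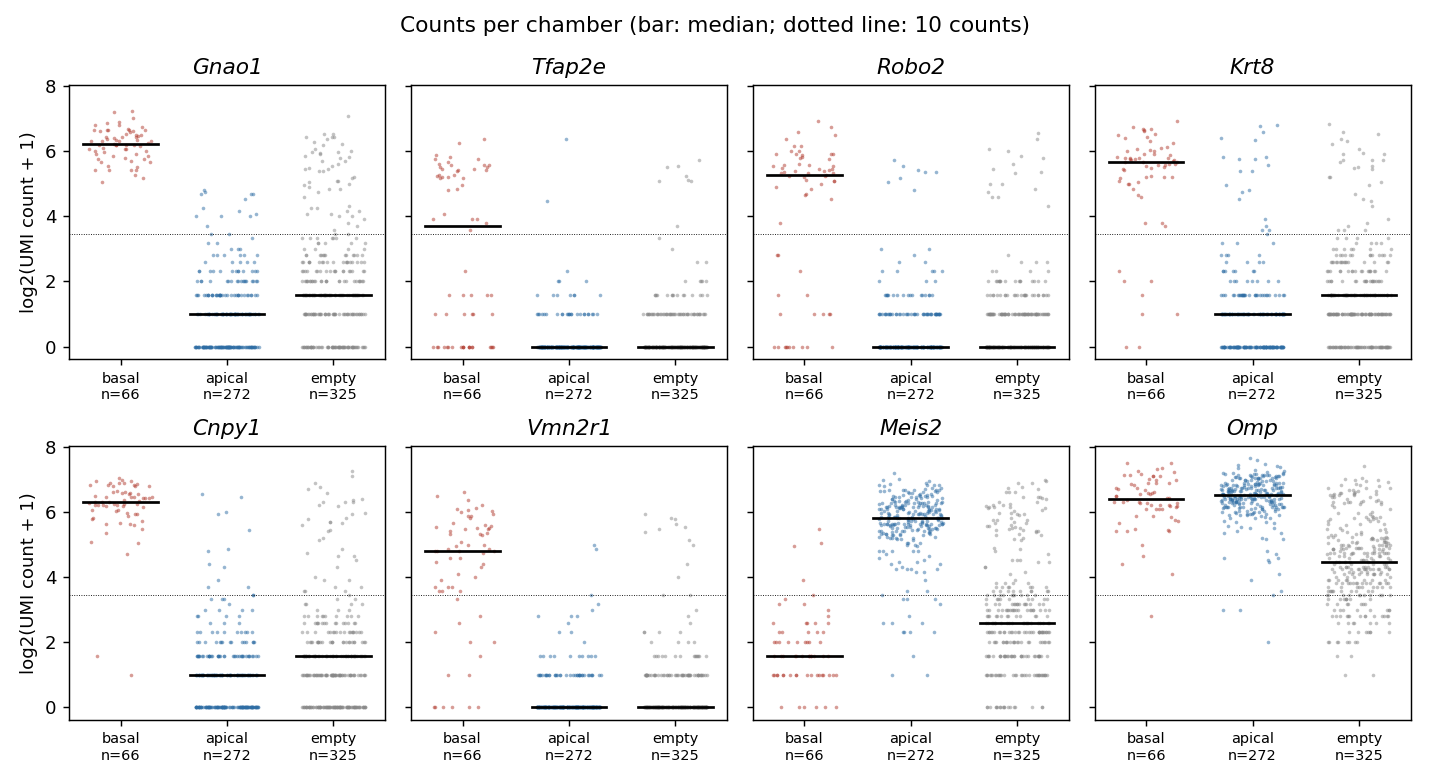
Counts of 8 genes in each basal, apical and empty chamber, as log2(count + 1) on the vertical axis; each point is 1 chamber, the bar is the median and the dotted line marks 10 counts. Tfap2e, Robo2, Krt8, Cnpy1 and Vmn2r1 are high in most or many basal chambers and in few apical or empty ones. Meis2 is high in most apical and few basal chambers, and Omp is high in both cell classes.

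Markers of non-neuronal cells were low. The summed counts of 6 sustentacular (supporting cell) markers had a median of 2 and a highest value of 62 in basal cells, with a member on in 8 cells. Sox2 is among these 6 markers and the rule held it under 10, so its part of this low sum was fixed in advance. The sums of immune, glial, and vessel and connective tissue markers each had a median of 0, with highest values of 53, 38 and 20 and a member on in 7, 6 and 1 cells. Of 6 progenitor markers, 5 were at 0 in all basal cells. Apical markers were not absent. Besides Gnai2, which the rule used, at least 1 of 5 apical markers was on in 26 of the 66 basal cells: the G protein subunits Gng2 in 17 and Gng13 in 13, the semaphorin receptor Nrp2 in 6, the homeobox factor Meis2 in 5 and the factor Nfix in 1. The basal medians were 4.5 counts for Gng2 and 4 for Gng13, against 12 and 7 in empty chambers, and the part of free RNA in these counts was not tested.

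Of the basal cells, 2 stood apart by some genes of main olfactory neurons, which sense odorants through cyclic nucleotide-gated channels. Cnga2, a subunit of that channel, had a level of 7.57 in the cell at row 29 number 18 and 5.27 in the cell at row 33 number 4. It was at most 1 count in the other 64 basal cells and on in no apical cell. Gnal, the olfactory G protein alpha subunit, had levels of 9.75 and 4.94 in these 2 cells against a median of 0 in the others (highest 3.63), and Stoml3, a protein of olfactory cilia, had 17.7 and 10.61 against a highest level of 0.517. S100a5, a calcium-binding protein gene, had 39.4 and 14.48 against a highest level of 1.95. The first of the 2 cells had 79 counts of the odorant receptor Olfr1509, only 31 of its highest vomeronasal receptor and 0 of Vmn2r1. The second had 62 counts of the pseudogene Olfr1372-ps1 but also levels of 18.3 for Vmn2r55 and 4.61 for Vmn2r1. Adcy3, the olfactory adenylyl cyclase, was at 0 in both. The 2 cells with Cnga2 met the rule and stay in the values, and counts without them are given where they matter.

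Against apical cells, the basal transcriptome differed in a small share of genes. Among 6427 genes with at least 3 counts in at least 25% of the cells of either class, 2.99% were called higher in basal cells and 2.89% higher in apical cells. A call required class levels at least 2-fold apart, and at least 1.5-fold apart among both numbers 1 to 10 and 11 to 20, the last number of a chamber's title, whose meaning the labels do not give. The median log2 ratio over all tested genes was -0.01. Of the called genes, 56 were on in at least 50% of basal cells and 34, on the other side, in at least 50% of apical cells. Without the 2 cells with Cnga2, 3.19% and 2.91% of 6519 tested genes were called, and they held 97.4% and 92.5% of the first calls.

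**Figure D2:**
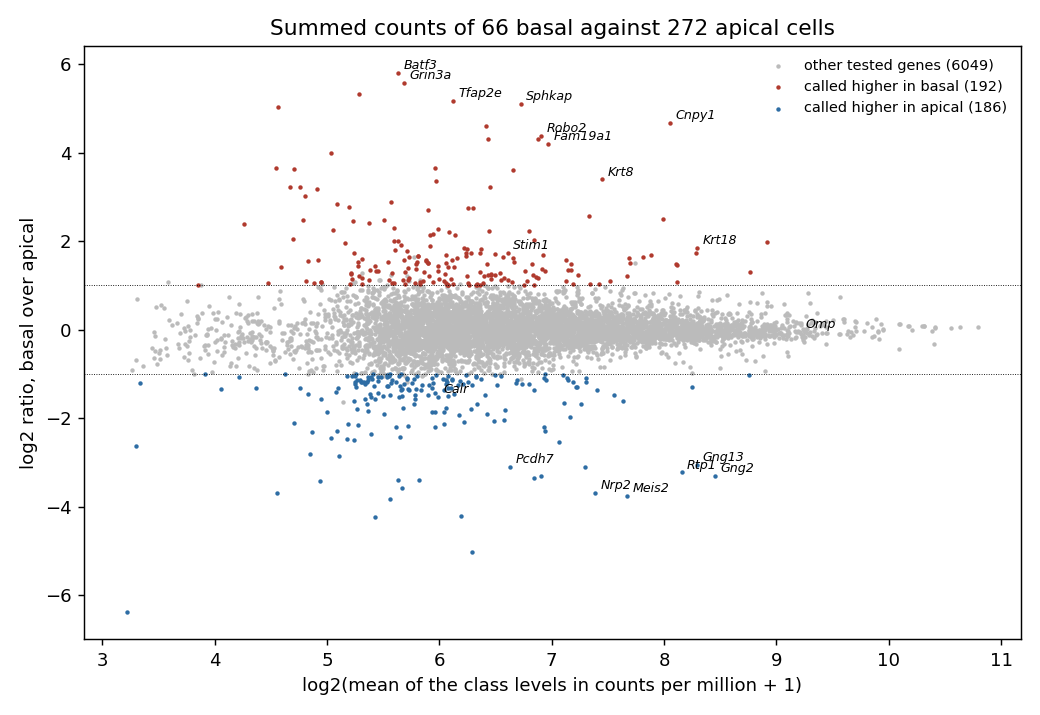
Each point is 1 of 6427 genes: the horizontal axis is the log2 of its mean level in both classes, in CPM plus 1, and the vertical axis the log2 ratio of basal over apical levels. The 2.99% of genes called higher in basal cells are red, the 2.89% called higher in apical cells blue, and dotted lines mark a 2-fold difference.

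Among broadly expressed basal genes, receptor genes left out, the largest folds belonged to Tfap2e and Sphkap. Vmn2r1, a receptor and so not among the genes called, had a fold of 47.5 [40.7–55.7]. Tfap2e was 36-fold higher [30.4–42.8], with folds of 152.7 among title numbers 1 to 10, 22.2 among 11 to 20 and 137.2 under stricter subunit limits (Gnao1 at 50 or more and Gnai2 under 10, mirrored for apical cells). Sphkap, an anchoring protein for protein kinase A, was 34.3-fold higher [30.1–39.4], with 86.4 and 20.2 in the same sets of numbers, and on in 54.5% of basal cells. Cnpy1, of the Canopy family of endoplasmic reticulum proteins, separated the classes most evenly: its median was 78.5 counts against 1, it was on in 97% of basal and 5.15% of apical cells, and it was 25.4-fold higher [23.6–27.4], between 17.9-fold and 40.1-fold in the alternatives other than the subtraction of empty chambers. Robo2 was 20.8-fold higher [18.8–23.1], and 32.2-fold under the stricter limits, and Fam19a1, which encodes a secreted neuronal protein, 18.3-fold [16.6–20.1]. Mfap3l (9.32-fold), Fbxo17 (6.76-fold), Gramd1b (6.68-fold), the acyltransferase gene Agpat5 (5.62-fold) and the glycosyltransferase gene Galnt18 (4.05-fold) followed. After the mean count of the empty chambers was subtracted, the apical sums of Tfap2e, Sphkap, Cnpy1, Robo2, Fam19a1 and Krt8 were at 0, so these folds depend on whether such counts are taken as background. The empty medians of Tfap2e, Sphkap, Robo2 and Fam19a1 were 0, with highest counts of 52, 80, 93 and 82, so these means rest on a part of the empty chambers. Whether those chambers hold free RNA alone was not tested. Among the broadly expressed basal genes of largest fold, Gm36028 was the most abundant, with median levels of 7.59 in basal and 2.02 in apical cells.

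The folds of genes on in fewer cells were as large. Batf3, a basic leucine zipper factor, was 55.7-fold higher [43.7–71.9] but on in 34.8% of basal cells, with 155.6 and 33.5 among title numbers 1 to 10 and 11 to 20. Grin3a, an NMDA receptor subunit and 1 of 3 tested glutamate and GABA receptor genes, was 47.8-fold higher [38.3–60.2] and on in 36.4%, with 81.3 and 32.1 in these sets. Of 16 tested identity transcription factors, 2 (Tfap2e and Batf3) were called basal and 3 (Meis1, Meis2 and Nfix) apical. Of all genes, 2.99% and 2.89% were called, and the list's median log2 ratio was -0.15. Tfap2e passed the filter on low values through the basal class alone (3 counts or more in 53.03% of basal and 2.21% of apical cells). Nfix passed it through the apical class alone (1.52% and 37.5%), so nothing is read from these counts. The olfactory factors Ebf1, Ebf2, Lhx2 and Emx2 were not called, and their folds were 0.90, 0.94, 0.88 and 1.13.

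Keratin genes of simple epithelia were among those called. Of 5 tested keratin genes, 3 were called basal and none apical, where 2.99% and 2.89% of all genes were called, and the list's median log2 ratio was 1.49. Krt8 passed the filter on low values through the basal class alone (3 counts or more in 92.4% of basal and 17.3% of apical cells), so nothing is read from this count. Krt8 was 10.55-fold higher [9.88–11.3], and its partner Krt18 was 3.59-fold higher [3.46–3.73] with medians of 74.5 and 4 counts. Krt72 was 2.82-fold higher.

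Several genes for folding secreted and membrane proteins were higher in basal cells. Of 20 tested endoplasmic reticulum chaperones and stress genes, 5 were called basal and 1 apical, where 2.99% and 2.89% of all genes were called. The list's median log2 ratio was 0.56, beside -0.01 over all genes. Creld2 was 3.07-fold higher, Dnajc3 2.84-fold, Sdf2l1 2.54-fold, Hyou1 2.48-fold and Pdia6 2.11-fold. Dnajc3, an inhibitor of a stress kinase, showed the shift in its medians, 51.5 counts in basal and 3.5 in apical cells. Hspa5, the main chaperone of the compartment, had a fold of 1.53 and Calr4, a calreticulin paralog, 1.49, both under the call. Calr, calreticulin itself, went the other way: it was 2.86-fold higher in apical cells and had a basal median of 0.

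A few tested genes of the signalling machinery downstream of the receptors were called. Of 12 tested transduction genes, 2 were called basal and none apical, where 2.99% and 2.89% of all genes were called, and the list's median log2 ratio was 0.15: Stim1, a sensor of calcium stores, was 3.33-fold higher [3.11–3.57], and the phospholipase gene Plcb4 2.87-fold. Trpc2, the principal channel of these neurons, was not analysed here. Among 8 tested G protein subunits, Gng2 and Gng13 were 9.81-fold and 8.33-fold higher in apical cells, while Gng8 had median levels of 10.27 in basal and 9.37 in apical cells, and Gnb1 of 9.56 and 9.71. Gng13 was on in 13 of 66 basal cells, and its levels of 12.2 and 6.17 in the cells with Cnga2 stood above the highest of the others, 2.82. Of 18 tested potassium channel genes, 3 (Kcnab2, Kcnk3 and Kcnn2) were called apical and none basal. All 3 lost the call in title numbers 11 to 20 alone, where the basal levels were 0.61, 0.55 and 0.62 of the apical ones. None of 13 sodium, calcium and HCN channel genes and none of 12 synaptic release genes was called in either direction. With 2.99% and 2.89% of all genes called, nothing is read from this in lists so short.

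Of 14 tested axon guidance genes, 2 were called basal, 1 apical and 11 neither, where 2.99% and 2.89% of all genes were called. The list's median log2 ratio was 0.14. Robo2 passed the filter on low values through the basal class alone, so nothing is read from these counts. Robo2 and the semaphorin gene Sema3a (2.13-fold) were called basal, and Nrp2 was 12.9-fold higher [11.3–14.7] in apical cells. Sema3a lost the call in title numbers 1 to 10 alone (1.78-fold) and under the stricter subunit limits (1.76-fold). Among 6 tested cadherins and protocadherins, Pcdh9 was 2.03-fold higher in basal cells, a call lost in title numbers 11 to 20 alone (1.89-fold) and with cells weighted equally (1.99-fold), and Pcdh7 8.57-fold higher in apical cells. Rtp1, a chaperone of odorant receptors, was 9.34-fold higher [8.59–10.2] in apical cells and had a basal median of 4 counts, below the median of 10 in empty chambers. The long noncoding G630016G05Rik was on in none of 66 basal cells, where its highest value was 5, and in 58.8% of apical cells.

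Housekeeping groups were level. The median log2 ratios of ribosomal protein, mitochondrially encoded and nuclear respiratory chain genes were -0.11, 0.16 and 0.04. None of 82 ribosomal protein genes and none of 13 mitochondrially encoded genes was called, where 2.99% and 2.89% of all genes were called. Of 81 nuclear respiratory chain genes 1, Atp5g1, was 4.2-fold higher in apical cells. Of 6 tested activity genes, Dusp1 was called apical (2.17-fold, a call lost in title numbers 11 to 20 alone), and Fos was on in 28.8% of basal and 52.2% of apical cells with a fold of 0.54. None of 7 young neuron markers was called, and the list's median log2 ratio was -0.25. Nothing is read from the number of calls in lists so short.

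Receptor identity was not part of the rule. The highest vomeronasal receptor outside family C was a V2R in 61 of 66 basal cells (92.4% [83.2–97.5], Clopper-Pearson), a V1R in 3 and the formyl peptide receptor Fpr3 in 2. Its count ranged from 8 to 495 with a median of 183.5, and in 59 cells it was a V2R with at least 100 counts. The cells used 48 different receptors, of which 34 were highest in 1 cell only. Vmn2r82, Vmn2r92, Vmn2r62 and Vmn2r53 led, with 3 cells each. Near-identical V2R genes can share reads, and this limits the identification of single genes: 59.9% of the 50-base words in the transcripts of Vmn2r91 also occur in those of Vmn2r92. The 2 Fpr3 cells had levels of 6.78 and 7.51 of it, and both had Tfap2e (1.27 and 3.61), Krt8 (4.8 and 3.08) and Vmn2r1 (1.27 and 0.53) on. Of the 3 V1R cells, the one with a level of 7.17 of Vmn1r206 had Robo2 at 5.65 and Vmn2r6 at 7.22. A second had 61 counts of Vmn1r27 and no count of any family C gene, and in the third no receptor outside family C passed 8 counts. The latter 2 had 82 and 58 counts of Gap43, a gene of growing axons.

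Family C receptors divided the basal cells. Vmn2r1 was on in 51 cells, Vmn2r2 in 36, Vmn2r6 in 25, Vmn2r4 in 24, Vmn2r3 in 16 and Vmn2r5 in 12, while 6 cells had none of these on. Vmn2r7 was not analysed here. The 6 genes lie side by side on chromosome 3 (GRCm38, Vmn2r1 at chr3:64081547-64109484 to Vmn2r6 at chr3:64531310-64565830). Of Vmn2r2 to Vmn2r6, 22 cells had none on, 16 had 1, 8 had 2, 6 had 3, 7 had 4 and 7 had all 5. Over the 66 cells, Spearman correlations between pairs of Vmn2r2 to Vmn2r6 ran from 0.40 to 0.77, whereas those of Vmn2r1 were 0.20 with Vmn2r2, 0.29 with Vmn2r3, -0.03 with Vmn2r4, 0.14 with Vmn2r5 and -0.32 with Vmn2r6. The cells share a chip and vary in depth, and these genes share sequence (14.6% of the 50-base words of Vmn2r6 are in Vmn2r4), so the correlations are descriptions. Vmn2r1 showed no steady order with the number of these genes on. It was on in 16 of the 22 cells with none on, with a median of 13 counts, and in all 16 cells with 1 on, with a median of 52. With 2, 3, 4 and 5 on it was on in 6 of 8, 3 of 6, 4 of 7 and 6 of 7 cells, with medians of 32.5, 25, 12 and 23.

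Some of the 9 H2-Mv genes varied with Vmn2r2 to Vmn2r6 of family C. The 9 genes lie within 531337 bases on chromosome 17, from H2-M10.2 (chr17:36284227-36286490) to H2-M10.6 (chr17:36812171-36815564), all annotated as protein coding. The 60 bases before each annotated start (RefSeq, GRCm38.p6; 5′ to 3′ on the gene's strand) are shown because these genes were on together in subsets of cells and their starts are alike. Capitals mark TATAAA on that strand.
H2-M10.2: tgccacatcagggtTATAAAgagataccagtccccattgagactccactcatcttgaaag
H2-M10.3: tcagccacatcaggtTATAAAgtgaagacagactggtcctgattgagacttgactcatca
H2-M10.4: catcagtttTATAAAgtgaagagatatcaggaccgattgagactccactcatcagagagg
H2-M10.5: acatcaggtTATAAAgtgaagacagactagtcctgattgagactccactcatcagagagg
H2-M10.6: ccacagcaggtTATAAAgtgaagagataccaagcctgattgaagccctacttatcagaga
H2-M10.1: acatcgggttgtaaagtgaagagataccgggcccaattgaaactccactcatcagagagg
H2-M1: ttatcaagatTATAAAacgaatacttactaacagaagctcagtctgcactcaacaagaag
H2-M9: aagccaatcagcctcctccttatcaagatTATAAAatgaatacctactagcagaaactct
H2-M11: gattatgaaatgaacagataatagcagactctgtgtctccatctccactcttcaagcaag
The letters TATAAA stood in this window in 7 of the 9 genes, against 3.15% of the same window in 27025 genes, and in 0 of 5 family C genes with an entry. Several of the 9 windows are alike in sequence, so they are not independent of each other. A match is a description of the sequence and not a binding site, and its relation to expression was not tested.

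H2-M10.3 was on in 29 cells, H2-M10.5 in 19, H2-M10.4 in 14, H2-M10.6 in 12, H2-M10.1 in 7, H2-M10.2 in 6, H2-M1 in 5, H2-M9 in 4 and H2-M11 in 3. In 29 cells none was on, in 14 cells 1, and in the other 23 cells between 2 and 6. Of the 9 genes, 3 passed the filter on low values and all 3 were called higher in basal than in apical cells: H2-M10.4 19.9-fold [18–22], H2-M10.5 12.1-fold [11.1–13.3] and H2-M10.3 5.91-fold [5.57–6.26]. A filter passed by the class in which a gene is high favours such calls, so nothing is read from their number. B2m, the light chain of class I molecules, had a fold of 1.77 [1.72–1.83] with medians of 93.5 and 48 counts, and the classical heavy chain gene H2-K1 was 2.01-fold higher in apical cells. That call of H2-K1 stood at the threshold and was lost in 4 alternatives, at basal over apical ratios of 0.51 to 0.55.

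Some H2-M10 genes were on more often in cells with many family C genes on; the division at 3 receptors was chosen after the values were seen. H2-M10.3 was on in 17 of the 20 cells with 3 or more of Vmn2r2 to Vmn2r6 on (85%, with levels from 0 to 10.397 and a median of 6.33) and in 12 of the other 46 (26.1%, from 0 to 15.7 with a median of 0.0615). H2-M10.5 was on in 12 of 20 (levels 0 to 15.2, median 1.95) and in 7 of 46 (0 to 2.21, median 0). The values of both genes overlap between the groups, but none of the 46 cells passed a level of 2.21 of H2-M10.5. H2-M10.6 was on in 9 of 20 and 3 of 46, H2-M10.1 in 5 and 2, and H2-M10.2 in 5 and 1. H2-M10.4 was on in 7 of 20 and 7 of 46, and its highest level was 13 in the 20 cells and 16.45 in the 46. H2-M1, H2-M9 and H2-M11 did not follow the split: they were on in 1 of the 20 cells each, and in 4, 3 and 2 of the 46. Total counts were alike, with medians of 155317 and 150569. Over the 66 cells, the summed counts of Vmn2r2 to Vmn2r6 and of the 9 H2-Mv genes had a Spearman correlation of 0.55, and 0.53 as shares of each cell's total. Vmn2r1 and the H2-Mv sum gave -0.03. Without the 2 cells with Cnga2 the first value was 0.56.

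**Figure D3:**
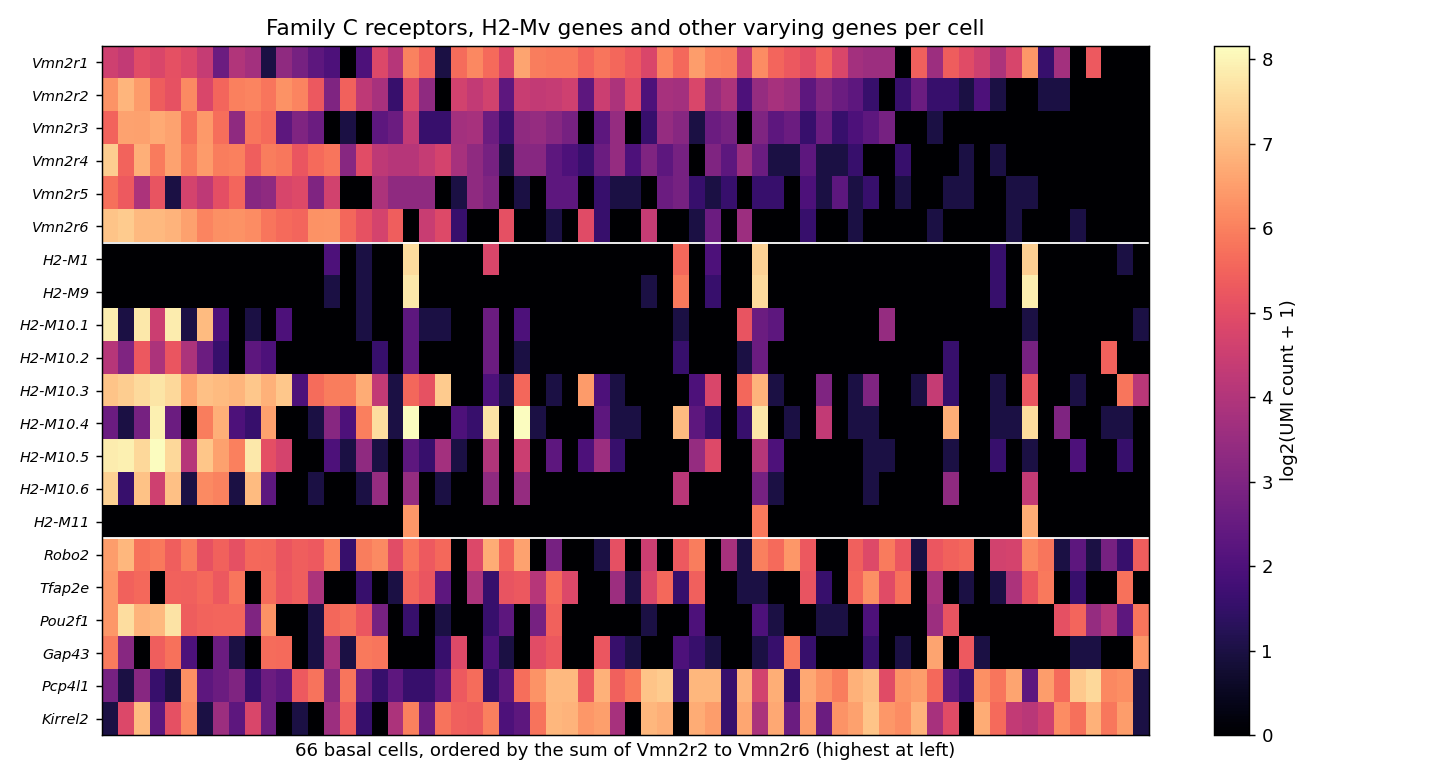
Counts of 21 genes (rows) in the 66 basal cells (columns), coloured by log2(count + 1) and ordered by the sum of Vmn2r2 to Vmn2r6 with the highest at left. H2-M10.3 is on in 17 of the 20 cells with 3 or more of these receptors on and in 12 of the other 46, while Pcp4l1 shows the reverse tendency and H2-M11 is on in 3 cells.

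Cells that shared a receptor held like H2-Mv genes in some cases and not in others. Of 14 receptors that were highest in 2 or more cells, 4 had no H2-Mv gene on in any of their cells, and in the other 10 the cells did not have exactly the same genes on. The case with the most genes in common was Vmn2r82, named after the values were seen. All 3 cells with Vmn2r82 (chr10:79356520-79397849) as highest receptor held H2-M1 (levels 7.57, 8.66 and 10.11), H2-M9 (11.1, 10.28 and 10.9) and H2-M11 (4.98, 3.8 and 3.43), with H2-M10.4 at 8.84, 13 and 12.8 and H2-M10.3 at 1.69, 2.13 and 6.92. H2-M11 was at 0 in the other 63 basal cells, and H2-M1 reached at most 47 counts there and H2-M9 at most 58. These 3 cells sat in different rows of the chip (4, 36 and 37). The 3 cells with Vmn2r92 (chr17:18151887-18188886) held H2-M10.4 at levels of 7.62, 12.5 and 8.16. In 2 of them H2-M1 was on (1.65 and 3.05) and in 1 H2-M9 (3.76), so H2-M1 and H2-M9 were on only in cells with these 2 receptors. The 3 Vmn2r53 cells had at most 1 count of any H2-Mv gene, and the 3 Vmn2r62 cells differed from each other, with levels of 12.2, 1.24 and 0.0602 of H2-M10.4. The 2 Vmn2r42 cells had H2-M10.3 (levels 8.8 and 9.78), H2-M10.4 (4.01 and 8.69), H2-M10.5 (9.53 and 7.14) and H2-M10.6 (4.66 and 5.05) on, and differed in H2-M10.1 (8.41 and 0.233). Other pairs had little in common. Of the 2 Vmn2r89 cells one had H2-M10.1 at 11 and H2-M10.5 at 10.8, and the other, a cell with Cnga2, 0 and 0.218. Of the 2 Vmn2r58 cells one had H2-M10.2 at 10.54 and the other 0. The cell at 10.54, row 15 number 9, was the shallowest basal cell (40788 counts) and the only one without Omp on. Its count of Vmn2r105 was close to that of Vmn2r58, so its receptor is uncertain and nothing is read from this pair. H2-M10.3 was on in only one of the 2 cells with Vmn2r100 (2.06 and 0), Vmn2r20 (4.32 and 0) and Vmn2r77 (2.64 and 0.08). With 2 or 3 cells a receptor, these are single observations.

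**Figure D4:**
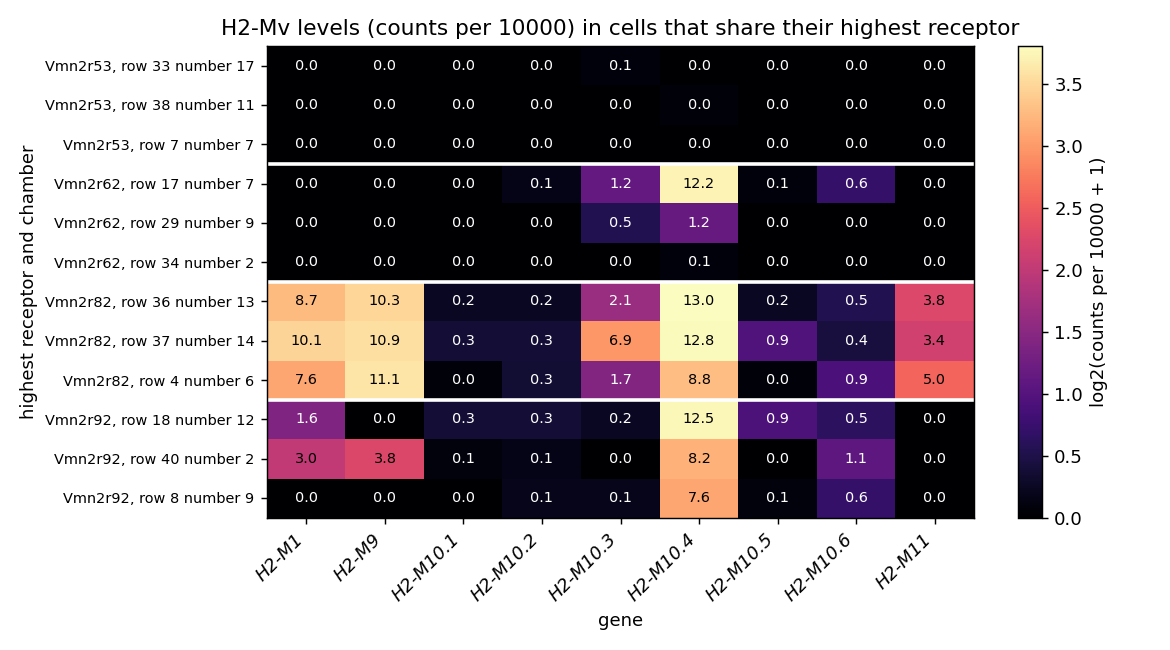
H2-Mv levels (counts per 10000, printed, and coloured by log2(level + 1)) in the 12 basal cells whose highest receptor was highest in 3 cells, 1 row per cell with its receptor and the row and number of its title. The 3 Vmn2r82 rows share H2-M1, H2-M9, H2-M11 and H2-M10.4, the 3 Vmn2r92 rows share H2-M10.4, and the 3 Vmn2r53 rows are near 0.

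Gm9268 was highest in the cells with Vmn2r62, at levels of 10.61, 8.58 and 8.49. It was on in 1 other cell, row 14 number 13 with Vmn2r89 (0.788), and reached at most 0.479 elsewhere. The gene (chr7:43018765-43048106) starts 225240 bases from the end of Vmn2r62 (chr7:42764055-42793525), and 84% of its 50-base words occur in Vmn2r62, so their reads cannot be told apart with certainty.

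Variation among basal cells went beyond these families. After thinning each cell to 60000 counts, 70 of 6842 genes (1.02%) had a variance-to-mean ratio at least 2 times that of genes of like mean, and 22 of them also varied by this measure in apical cells (27 of 6867 genes, 0.393%). The 2 shares come from unequal numbers of cells and are not compared: among basal cells of title numbers 11 to 20 alone the share was 3.35%. S100a5 led with 14.4 times and Stoml3 had 7.49 times, but both rested on the 2 cells with Cnga2: without them, neither reached the mean count of 2 needed to be considered, and 64 genes varied. Bglap3 (12.4 times), an osteocalcin gene family member, was on in 30.3% of basal cells and reached 484 counts. It was also on in 26.5% of empty chambers, and its fold over apical cells was 1.07 in title numbers 1 to 10 and 4.63 in 11 to 20. H2-M10.4 (7.05 times), H2-M10.3 (5.1 times), H2-M10.5 (5.09 times) and H2-M9 (4.85 times) followed. Mitochondrial transcripts such as mt-Co2 (4.72 times) varied too, together with nuclear pseudogenes of the same sequence: all 50-base words of Gm28661 are in mt-Co2. Without the 5 cells with Meis2 on, mt-Co2 fell to 2.26 times and 51 genes varied. The cell at row 29 number 17, with 14 counts of Meis2, was among these 5. It had the highest mitochondrial share, 4.26% against a basal median of 1.25%. The variation of mt-Co2 without this cell alone was not tested.

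**Figure D5:**
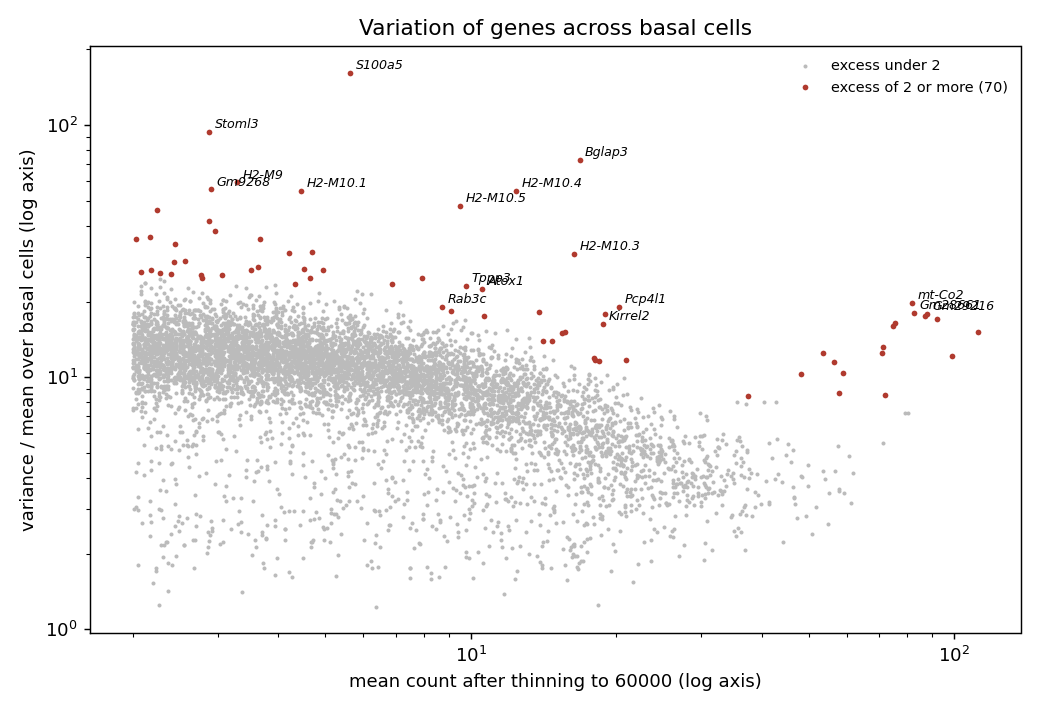
Variance over mean of each of 6842 genes across basal cells against its mean count after thinning to 60000 counts, both on log axes. The 70 genes at 2 times the running median or more are red, with S100a5, Stoml3, Bglap3 and the H2-M genes highest above the band.

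Other genes split the basal cells into on and off, named here after their values were seen. Tppp3, of a family of tubulin-binding proteins, was on in 33.3% of basal and 2.21% of apical cells. Atox1, a copper chaperone, was on in 43.9% and 11%, and Rab3c, a vesicle GTPase, in 42.4% and 10.7%. Kirrel2, an adhesion molecule that sorts olfactory axons, was on in 69.7% of basal cells and ran from a level of 0 to 14. Pcp4l1 was on in 5 of the 20 cells with 3 or more of Vmn2r2 to Vmn2r6 on (median 5 counts) and in 34 of the other 46 (median 65.5). Kirrel2 was on in 10 and 36, with medians of 8 and 55.5. Pou2f1, an octamer-binding factor, was on in 12 of 20 and 9 of 46, and Robo2 in 19 of 20 and 27 of 46. Robo2 and Pcp4l1 had a Spearman correlation of -0.54 over the 66 cells.

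The principal components of the basal cells without receptor genes explained little variance each, 4.17%, 3.33% and 3.07% for the first 3. The first was led by 1 cell, row 29 number 17, at a score of -50.6. The next most extreme cell on that side was at -20.1. The second component had a Spearman correlation of 0.69 with the summed counts of Vmn2r2 to Vmn2r6, which were not part of its input, 0.6 with the share of endoplasmic reticulum chaperones and 0.43 with Robo2, against 0.12 with total counts. Its low end was held by row 33 number 4 (-28.5), a cell with Cnga2, and row 15 number 9 (-26.8), the shallowest basal cell, followed by row 29 number 18 (-11.6), the other cell with Cnga2. The second component also had 0.69 with the H2-Mv sum, but H2-Mv genes were part of the input. Chaperone genes and Robo2 were also open to being chosen as input, so their correlations are not independent of the component. Genes at its low end included Pcp4l1 (-0.61) and the calcium channel gene Itpr1 (-0.4). Without the cell at row 29 number 17, the correlation of the second component with Vmn2r2 to Vmn2r6 was 0.52. It was 0.67 without the 2 cells with Cnga2 and 0.62 without row 15 number 9. Without all 3 of these cells the strongest correlation was 0.61 and lay with the third component. Endoplasmic reticulum chaperones took a median of 0.698% of counts in the 20 cells with 3 or more of these receptors on (0.496 to 0.906%) and 0.599% in the other 46 (0.389 to 0.861%), so the ranges overlap.

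Markers of young neurons differed in how widely they were on. Gap43 and Dcx were on in a minority of the basal cells, but Stmn2 was on in 54.5% and Gng8 in 98.5%. Gap43 was on in 16 basal cells and Dcx, a microtubule-binding protein of young neurons, in 13, of which 7 had both on. Omp had a median level of 5.36 (1.71 to 12.3) in the 16 cells with Gap43 on and 5.6 (1.02 to 13.3) in the other 50, and the ranges overlap nearly whole. The cells were sorted on GFP from the Omp locus, so cells with low Omp may have been removed before these values were measured. Stmn2, a growth-associated tubulin regulator, had median levels of 2.72 and 0.371 in the same groups. Gap43 was on in 9 of the 20 cells with 3 or more of Vmn2r2 to Vmn2r6 on and in 7 of the other 46.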

How the data were processed

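Single cells in 800 chambers of 1 C1 HT chip were profiled from transcript 3′ ends, with molecular identifiers of 5 bases. The deposited table holds whole-number counts per gene (28963 genes) made by the authors; tools named in the submitters' processing notes are STAR 2.5.4b, SAMtools 1.5, featureCounts 1.6.1, bcl2fastq and UMI-tools 0.5.3, with the build GRCm38/mm10. Counting strand is not given in the sources used here, so reads of overlapping and antisense genes may be mixed. One column tied to no chamber was not used. Some genes were not analysed here. Doublets were treated only by the chamber labels and the limit on the second subunit; no doublet caller was run.

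Of the chambers, 394 were labelled single cell (272 of them apical by the rule) and 325 empty. Counts were summed over the cells of a class and scaled to class totals without 461 receptor genes; a class at 0 was set to a floor of 3 counts over the class, with no fold where both were at 0, and intervals (95%) are exact for counts. For variation, cells were thinned to 60000 counts, which left out 1 basal and 6 apical cells, and genes with a mean of at least 2 were set against a running median over 201 genes. Components used 1500 genes. The contrast called 192 genes basal and 186 apical; calls are given as percents of genes tested. The planned share of cells was at 3 counts or more; 10 or more, a listed alternative, is printed because of the 2 modes. Named genes are the markers, the 15 most abundant, the called genes of largest fold (20 basal, 10 apical) on in 50% of their class, the 15 most variable, 8 at each end of 2 components, called list members, the leading receptors and family C; not all are printed. Members and lists were chosen with earlier results of these data known. Calling and variation were tested on simulated data. Positions come from GENCODE vM21. Python 3.11.15, numpy 2.4.6, pandas 2.3.3 and scipy 1.17.1 were used.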

Additional observations from a re-analysis of the deposited data

Results flagged for a closer look

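The rule for basal cells was also met in chambers outside the comparisons. Of 18 chambers labelled as putative single cells, 8 met it (44.4% [21.5–69.2], Clopper-Pearson, counting error only), with a median total of 123414 counts. In the empty chambers, which serve as the control, 22 met it, 6.77% of them [4.29–10.07], with a median total of 38229 counts. In single-cell chambers the share was 16.8% [13.2–20.8], and in chambers labelled with multiple cells 3 of 63.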

How the results depend on the processing

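The number of basal cells stayed between 45 (Gnai2 under 10) and 74 (putative chambers added). Genes called higher in basal and in apical cells were 2.99% and 2.89% of those tested. They became 5.06% and 5.55% after subtracting the mean empty-chamber count. When the filter asked for 10 counts in place of 3, 3% and 2.35% of 5230 genes were called, and without a filter beyond 50 counts 5.49% and 13.3% of 16990 genes, of which 29.2% basal. In title numbers 1 to 10 alone they were 4.86% and 4.31%, holding 83.9% and 78% of the first calls, and in 11 to 20 alone 5.47% and 5.79%, holding 79.2% and 72%; agreement between both sets of numbers cannot be required there. The empty-chamber subtraction moved the folds of 43 of 57 called named genes by over 1.5 times, all 43 farther from 1. It left the apical sum at 0 for 10 genes called basal, and the basal sum at 0 for 13 called apical. Among these, Cbr2, a sustentacular marker, was at 0 in both and has no fold there. Other alternatives moved 21 of the 57 folds by over 1.5 times. Of the 57, 45 kept their call under all 12 alternatives. Those that lost it were Lss, H2-K1, Kcnab2, Kcnn2, Kcnk3, Pcdh9, Sema3a, Ugp2, Dusp1, Cbr2, Ssbp4 and H2-M10.4, the last 2 only because they failed the stricter filter. The 70 variable genes (1.02%) became 1.37% of 9056 genes with a mean of at least 1 and 3.35% in title numbers 11 to 20 alone, and numbered between 51 and 88 elsewhere. At 1 count or more, Tfap2e was present in 69.7% and Robo2 in 84.8% of basal cells, against 53.03% and 74.2% at 3 or more. No paired analysis was possible because the results come from no test and the labels do not say what the title numbers mark. At this depth a gene at 0 counts cannot be called absent.

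Putative chambers, other component settings, thinned shares and receptor minimums of 10, 30 and 100 counts moved no count by more than 1.5 times. Leaving out the cells with Cnga2 or Meis2, or single cells, was chosen after seeing the data.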
